A study of Mus musculus with 18 samples.

Results

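Nascent RNA at the last maturation step was compared between the 3 S3 and the 3 S2 libraries, 6 of the 18 libraries of the series. Both populations were sorted by FACS from C57BL/6 mouse fetal livers (e12.5 to e13.5), from lineage-negative cells. Cells bound by a biotinylated antibody against Ter119 had been depleted magnetically before the sort, so the S3 cells are Ter119-high cells left after that step. S2 cells were CD71 high and Ter119 medium, and S3 cells CD71 high and Ter119 high, where CD71 is the transferrin receptor and Ter119 a surface antigen of maturing erythroid cells. All sorted cells were cultured for 6 h and then given 500 µM 4-thiouridine (4sU) for 45 min, a uridine analogue that enters RNA during transcription and lets newly made RNA be purified and sequenced. The labels give no genetic change and no other treatment in either group. Of 54232 listed genes, 16555 had enough counts to be tested. The study calls its 4sU replicates biological, and the sources used here do not state whether they came from separate litters or sorts, so the p-values measure the spread between these samples.

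As background, erythroid cells of this stage go through their last divisions before the nucleus is condensed and pushed out. In maturing erythroid cells globin, heme and membrane skeleton genes are known to run at high output, and ribosomes, mitochondria and most other proteins are cleared by autophagy and by ubiquitin-dependent degradation. Nascent RNA shows which genes are being transcribed, before RNA stability shapes their levels. In bulk samples, fewer cells of a type and less new RNA per cell cannot be told apart.

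The library totals were 25303249 to 36531205 counts in S2 and 17978747 to 32762197 in S3, and a floor of 3 counts corresponded to 0.0821 to 0.119 CPM (counts scaled to a common total) in S2 and 0.0916 to 0.167 in S3. Since PCR copies carry no molecular identifiers, such limits describe counting error alone. Along the first principal component of the 15 erythroid libraries, which held 52.9% of the variance, S2 replicates 1 and 2 lay at 16.7 or below, S2 replicate 3 at 102 and the S3 libraries at 169, 135 and 197. S2 replicate 3 therefore lay between the other S2 libraries and S3. Some genes with reads in the other replicates were listed at 0 in single libraries. S3 replicate 1 listed at 0 4.23% of the genes that had at least 100 normalized counts in both other replicates. The share was 1.78% in S3 replicate 3, 0.646% in S2 replicate 3 and at most 0.045% in the other 3 libraries. A 0 in S3 replicate 1 or 3 is therefore a weaker statement than one in S3 replicate 2. The part of these features in the results was not tested, and values without single libraries stand beside the results.

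The S3 and S2 libraries differed at 1548 genes (9.35% of those tested), of which 540 (3.26%) were higher in S3 and 1008 (6.09%) lower, by edgeR's quasi-likelihood test after Benjamini-Hochberg adjustment over all tested genes, at a threshold of 0.05. They are named called genes below. The median fitted log2 fold change was 1.91 among genes called higher and -4.3 among genes called lower. Among called genes with at least 10 counts in every S2 and S3 library, it was 1.82 for 499 genes called higher and -1.97 for 366 called lower, so the larger falls were of genes with few or no counts in some libraries. Of the genes called lower, 214 had no count in any S3 library, whereas 3 of those called higher had none in S2. The normalized counts did not overlap between the 2 populations for 525 of the 540 and 857 of the 1008, against 9.1% and 14.1% of all tested genes with every S3 library above or below every S2 library. Genes called higher held 8.74, 9.97 and 15.4% of the counts in S2 replicates 1 to 3 and 27.9, 32.3 and 36.4% in S3, and genes called lower 6.61, 6.53 and 3.54% in S2 and 1.1, 1.37 and 0.662% in S3. S2 replicate 3 was thus the S2 library nearest S3 on both measures.

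**Figure D1:**
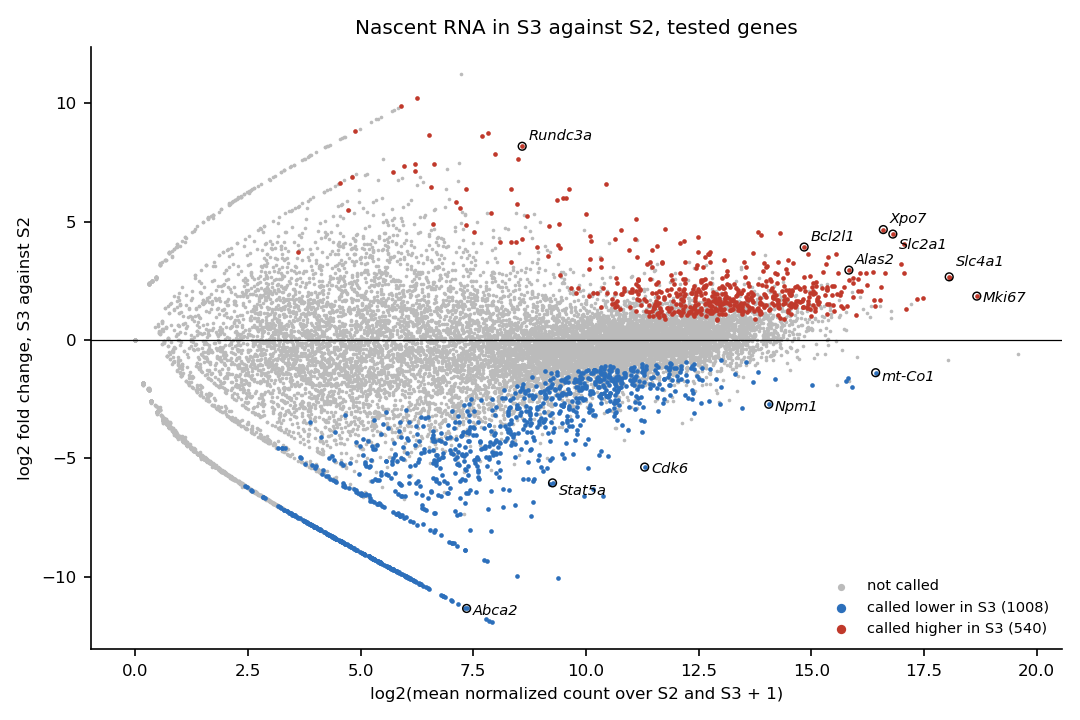
Log2 fold change in S3 against S2 of the 16555 tested genes (vertical axis) by their mean level in the 6 libraries (horizontal axis, log scale), with genes called higher in red and lower in blue. The largest absolute changes are those of genes called lower at low levels, where fitted values depend on counts at or near 0.

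How many genes were called depended on the fit. Fold changes are relative to the TMM scaling, under which the median of all tested genes was -0.31. With library totals alone it was -0.82 and the calls were 288 higher and 2264 lower, with every one of the 1548 genes keeping its sign. List medians given below with library totals therefore stand against -0.82. With the replicate number as a block the calls were 1208 higher and 1866 lower and included 538 and 1005 of the genes above. A minimum of 10 counts in every S2 and S3 library gave 561 higher and 620 lower, with 499 of the 540 and 366 of the 1008 among them. A fit of the 6 libraries alone called 75 higher and 23 lower. Of the called genes named here, that fit called Bcl2l1, Bpgm, Epb41, Fbxo30, Gss, Hba-a1, Hba-a2, Hbb-b2, Hspa1a, Hspa1b, Ifnar1, Marchf3, Ncoa4, Slc2a1, Ube2h, Ube2l6, Ube2o, Ulk1, Xpo7 and mt-Nd6, and Slc4a1 and Alas2 were not called in it (adjusted p = 0.12 and 0.0579). Without S2 replicate 1 the calls were 165 higher and 533 lower, without S2 replicate 2 179 and 513, without S2 replicate 3 850 and 1525, without S3 replicate 2 514 and 1595, and without S3 replicate 3 265 and 616. DESeq2 called 1292 higher and 2040 lower.

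Genes were then described in 25 lists of pathways and complexes, whose counts of called members stand against 3.26% higher and 6.09% lower among all tested genes. Lists of 17 to 33 tested members with 1 or 2 calls in a direction are near that background, and nothing is read from such a count. The lists with the highest medians were the globins (median log2 fold change 2.84), the red cell membrane and skeleton (1.75), ubiquitin enzymes of erythroid remodelling (1.45), mitosis and cytokinesis (1.32) and heme synthesis (1.3). The lowest belonged to leukocyte signalling and cytoskeleton (-2.51), progenitor transcription factors (-1.91), ribosome biogenesis (-1.88), mitochondrially encoded genes (-1.67) and cytosolic ribosomal proteins (-0.95). With 1 library left out these 10 medians kept their sign, that of the progenitor factors being -0.36 without S2 replicate 2. The leukocyte median was -1.88 without S2 replicate 1. Without S2 replicate 3 those of the ubiquitin enzymes and heme synthesis were 2.05 and 1.89.

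**Figure D2:**
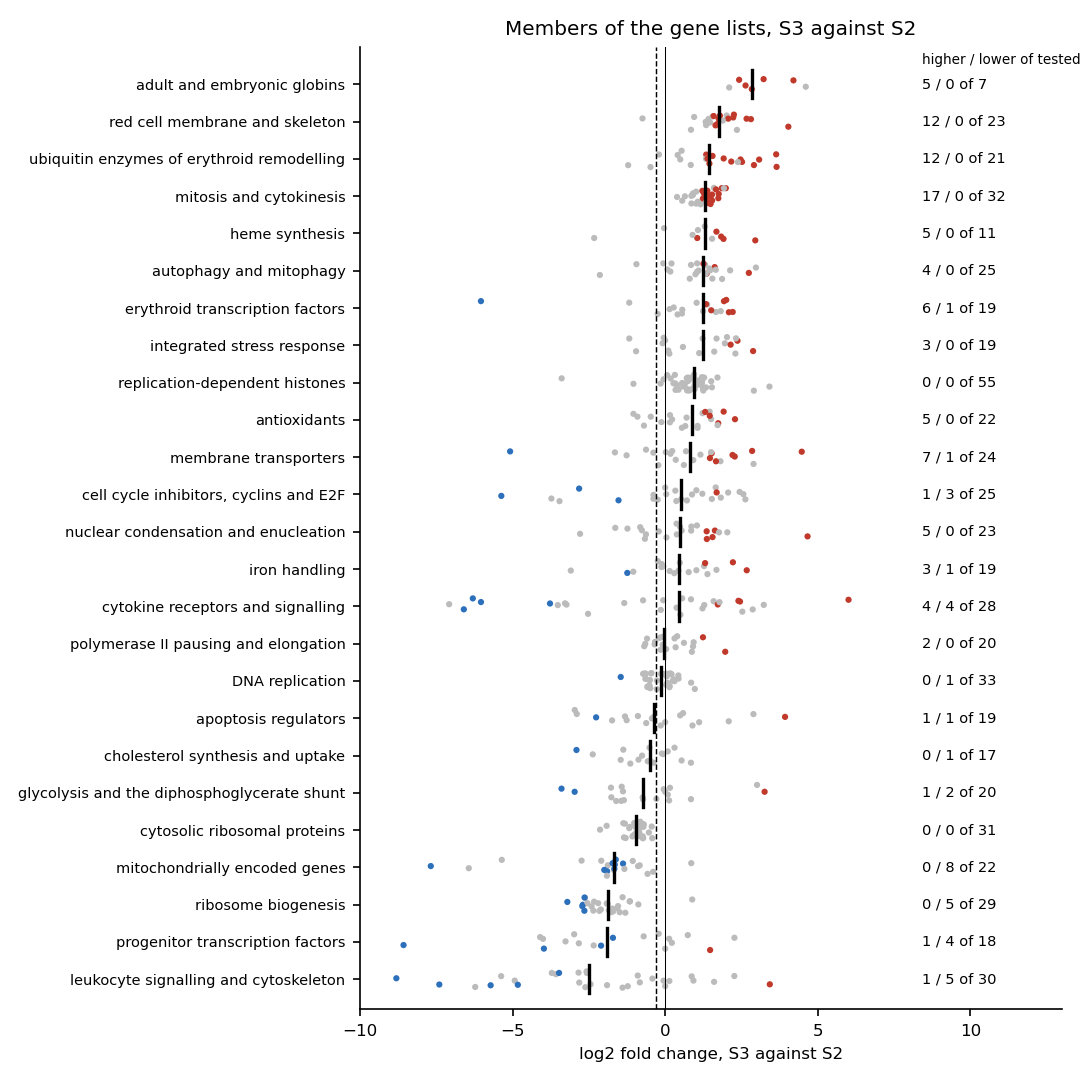
Log2 fold change in S3 against S2 of each tested member of the 25 gene lists, with members called higher in red, called lower in blue and others in grey. The thick line is the list's median, the dashed line the median of all tested genes (-0.31), and the counts at the right give members called higher and lower of those tested, from 5 and 0 of 7 globins to 1 and 5 of 30 leukocyte genes.

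Slc4a1 and Alas2 mark the maturing erythroid cell. Slc4a1 (GRCm38 chromosome 11, 102348820 to 102365281), which encodes the anion exchanger band 3, had 36447, 47800 and 138933 normalized counts in the S2 libraries and 320553, 467813 and 628771 in the S3 libraries (log2 fold change 2.67, SE 0.67, edgeR adjusted p = 0.0208). Alas2 (chromosome X, 150547417 to 150570622), the erythroid 5-aminolevulinate synthase that starts heme synthesis, had 7045, 9568 and 23524 normalized counts in the S2 libraries and 78736, 108631 and 123166 in the S3 libraries (log2 fold change 2.95, SE 0.47, edgeR adjusted p = 0.00185). For both genes every S3 library lay above every S2 library, and S2 replicate 3 was the highest S2 library. Slc4a1 alone took 0.112, 0.163 and 0.396% of the counts in S2 and 0.777, 1.04 and 1.2% in S3. Alas2 kept the call when any 1 of the 6 libraries was left out. Slc4a1 lost the call without S2 replicate 1 or 2 or S3 replicate 3 (adjusted p from 0.0608 to 0.0938 in those fits). Slc4a1 and Alas2 moved by more than 1.5-fold without S2 replicate 3 (log2 fold change from 3.47 to 3.63).

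In heme synthesis, 5 of 11 tested members were called higher and 0 lower (median log2 fold change 1.3), against 3.26% and 6.09% of all genes. Besides Alas2 the called members included Cpox, the coproporphyrinogen oxidase, with 39001, 38229 and 49395 normalized counts in the S2 libraries and 82223, 97251 and 82798 in the S3 libraries, and Ppox, the oxidase that follows it, with 4681, 8098 and 15188 in S2 and 19122, 31678 and 38742 in S3. Fech, the ferrochelatase that inserts iron, had 18305, 21480 and 42454 in S2 and 81987, 103612 and 107354 in S3 (log2 fold change 1.83, SE 0.36, edgeR adjusted p = 0.00624). For these 3 genes the S3 libraries lay above the S2 libraries. Alas1, the housekeeping form of the first enzyme, was not called and had 991, 1171 and 1015 in S2 and 0, 548 and 82 in S3. Calls numbered 8 higher and 0 lower with the replicate block, and with library totals 2 higher and 0 lower. Fech kept the call when any 1 of the 6 libraries was left out. Cpox lost the call without S2 replicate 1 or 2 or S3 replicate 1, 2 or 3, and Ppox without S2 replicate 1 or 2 or S3 replicate 2 or 3 (adjusted p from 0.0585 to 0.185 in those fits). Cpox and Ppox were not called with library totals in place of TMM (adjusted p from 0.108 to 0.187).

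The promoter of Alas2 is shown because it carries the GATA motif next to one of the called heme genes. In this and the windows below, from 250 bases before to 50 bases after the annotated start (RefSeq, GRCm38.p6), capitals mark the motif on either strand, here AGATAA or its reverse complement. Such a match was present in 2 of 12 windows of the heme genes (16.7%) and in 6.87% of the 13706 windows of tested genes. Of the other motifs searched in the heme windows, CACGTG was in 4 of 12 (33.3%, against 9.6% of tested genes' windows), TTTGAA in 1, and CCACACCC and TGATGNAA in 0.
Alas2, chrX:150547167-150547466, plus strand: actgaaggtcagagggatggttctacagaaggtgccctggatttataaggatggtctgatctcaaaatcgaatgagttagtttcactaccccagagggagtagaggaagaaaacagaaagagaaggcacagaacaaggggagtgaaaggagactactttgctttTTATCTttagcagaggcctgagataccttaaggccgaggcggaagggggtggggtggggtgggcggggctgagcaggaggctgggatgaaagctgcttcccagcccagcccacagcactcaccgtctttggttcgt
A match is a description of the letters and no evidence that a factor binds there.

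**Figure D3:**
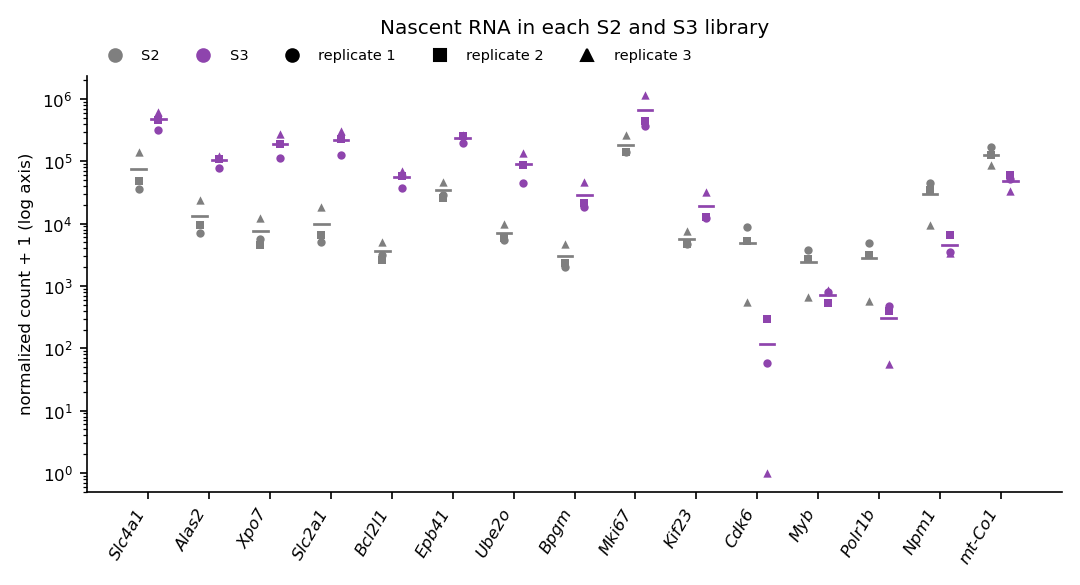
Normalized count + 1 (vertical axis, log scale) of 15 genes in the 3 S2 and 3 S3 libraries, with 1 point per library and a short line at the mean of each population. The S3 points lie above the S2 points for Slc4a1, Alas2, Xpo7, Slc2a1, Bcl2l1, Epb41, Ube2o, Bpgm, Mki67 and Kif23 and below them for Cdk6, Polr1b, Npm1 and mt-Co1, while those of Myb overlap.

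The globins, the oxygen-carrying chains that take up the heme, were higher in S3 in every library. Here 5 of 7 tested members were called higher and 0 lower (median log2 fold change 2.84) by edgeR, and every S3 library lay above every S2 library for all 7. Globin genes together held 0.142 to 0.236% of the counts in S2 and 0.787 to 1.04% in S3. The adult alpha chain gene Hba-a1 had 14702, 15432 and 21417 in S2 and 89932, 113071 and 116607 in S3 and its near-identical copy Hba-a2 7075, 7012 and 9870 in S2 and 47901, 78578 and 97431 in S3, so reads may be divided between them and their separate values are uncertain. The adult beta chain genes Hbb-b1 and Hbb-b2 had 15291, 24377 and 34850 in S2 and 126685, 207875 and 197922 in S3, and 8896, 8544 and 14100 in S2 and 51705, 58538 and 58782 in S3, with the same uncertainty. Of the embryonic chains, Hbb-y had 127, 37 and 180 in S2 and 2290, 797 and 3237 in S3 (log2 fold change 4.2, edgeR adjusted p = 0.0488), while Hba-x with 8.96, 23.3 and 70.7 in S2 and 1363, 170 and 977 in S3 and Hbb-bh1 with 52.5, 134 and 715 in S2 and 863, 1210 and 1781 in S3 were not called. Hba-x and Hbb-bh1 were called with the replicate block (adjusted p = 0.019 and 0.0247). The embryonic genes were far below the adult ones in both populations on this scale, which is not corrected for gene length. Hba-a2 kept the call when any 1 of the 6 libraries was left out. Hba-a1, Hbb-b1 and Hbb-b2 lost the call without S2 replicate 1 or 2 or S3 replicate 3, and Hbb-y without S2 replicate 1, 2 or 3 or S3 replicate 1 or 3 (adjusted p from 0.055 to 0.164 in those fits). Hba-a1, Hbb-b2 and Hbb-y were not called with library totals in place of TMM (adjusted p from 0.0511 to 0.0671).

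Of the genes of iron handling 3 of 19 tested members were called higher and 1 lower (median log2 fold change 0.44). Tfrc, which encodes the transferrin receptor CD71 used in the sort, had 76862, 57354 and 110415 normalized counts in the S2 libraries and 193161, 201355 and 211058 in the S3 libraries (log2 fold change 1.31, SE 0.31, edgeR adjusted p = 0.0163). Slc25a37, the mitochondrial iron importer mitoferrin, had 16904, 20270 and 64373 in S2 and 129994, 158336 and 184184 in S3, and Ncoa4, the receptor that brings ferritin to autophagy, had 2273, 2633 and 4717 in S2 and 12921, 16825 and 31556 in S3 (log2 fold change 2.67, SE 0.45, edgeR adjusted p = 0.00248). S3 lay above S2 in every library for these 3 genes. Steap3, the reductase of endosomal iron, was the member called lower with 6635, 5504 and 10530 in S2 and 2799, 3812 and 2974 in S3 (log2 fold change -1.24, edgeR adjusted p = 0.0291; 0.0508 with RLE factors). Ferritin heavy chain Fth1 had 37066, 31686 and 26784 in S2 and 34173, 47653 and 47401 in S3, and those libraries overlapped. The list's median was -0.09 with library totals, a scaling that also lowered the median of all tested genes, as given above. Calls numbered 6 higher and 3 lower with the replicate block. Ncoa4 kept the call when any 1 of the 6 libraries was left out. Tfrc and Slc25a37 lost the call without S2 replicate 1 or 2, and Steap3 without S2 replicate 1 or 3 or S3 replicate 1 or 3 (adjusted p from 0.0578 to 0.0847 in those fits). Slc25a37 moved by more than 1.5-fold without S2 replicate 3 (log2 fold change 3.07). Tfrc was not called with library totals in place of TMM (adjusted p 0.0649).

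Of the proteins that shape the red cell membrane, 12 of 23 tested members were called higher and 0 lower (median log2 fold change 1.75), and S3 lay above S2 in every library for 21 of the 23. The skeleton under the membrane is a net of spectrin tied to band 3 through ankyrin and held at its junctions by protein 4.1. Sptb, the beta spectrin, had 73645, 68434 and 104925 normalized counts in the S2 libraries and 229288, 289145 and 336741 in the S3 libraries (log2 fold change 1.79, SE 0.29, edgeR adjusted p = 0.0019). Ank1, the ankyrin, had 52635, 59710 and 117725 in S2 and 201624, 274829 and 298730 in S3 (log2 fold change 1.75, SE 0.36, edgeR adjusted p = 0.00721). Epb41, which encodes protein 4.1 (GRCm38 chromosome 4, 131923413 to 132075346), had 29018, 25570 and 47346 in S2 and 193493, 258820 and 262258 in S3 (log2 fold change 2.81, SE 0.33, edgeR adjusted p = 0.000217). For these 3 genes all S3 libraries lay above all S2 libraries. Tmod1, a cap of the short actin filaments, and Dmtn, which bundles actin, were called too, with log2 fold changes of 2.23 and 2.25.

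Among membrane proteins outside the net, Tmcc2, a transmembrane and coiled-coil protein, had the largest change of the list with 5675, 7790 and 33827 in S2 and 114198, 205337 and 455400 in S3 (log2 fold change 4.03, SE 0.88, edgeR adjusted p = 0.0111). The blood group protein Kel had 14547, 23464 and 42817 in S2 and 87321, 134153 and 117183 in S3, the Rh-associated glycoprotein gene Rhag 12686, 10902 and 17604 in S2 and 47842, 47288 and 34028 in S3, and the 4.1-binding scaffold gene Mpp1 3507, 2879 and 4295 in S2 and 7885, 13375 and 15662 in S3. All 3 were called, with log2 fold changes of 2.07, 1.65 and 1.79, and none overlapped between the populations. Gypc, the glycophorin that anchors protein 4.1, changed by 1.59. Calls numbered 22 higher and 0 lower with the replicate block, and without S2 replicate 3 18 higher and 0 lower. Sptb, Ank1, Epb41, Kel, Rhag, Mpp1 and Gypc kept the call when any 1 of the 6 libraries was left out. Tmod1 and Dmtn lost the call without S2 replicate 1 or 2 or S3 replicate 3, and Tmcc2 without S2 replicate 1 or 2 (adjusted p from 0.0513 to 0.157 in those fits). Tmod1, Dmtn and Tmcc2 moved by more than 1.5-fold without S2 replicate 3 (log2 fold change from 3.16 to 5.25), and Tmcc2 without S3 replicate 3 (log2 fold change 3.33). Tmod1 and Dmtn were not called with library totals in place of TMM (adjusted p from 0.066 to 0.0697).

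The GATA motif AGATAA, in either orientation, stood in 6 of 23 promoter windows of this list (26.1%), against 6.87% of tested genes' windows and 6.38% of the 549 windows of genes called higher. Of the genes with a match, Tmcc2, Kel and Mpp1 were called, and Epb42, Icam4 and Rhd were not. The windows of the 3 called members are shown, with the motif in capitals. Tmcc2 has 3 windows, of which the one shown lies within the annotated gene and is the only one with the motif. Of the other motifs searched, CACGTG, CCACACCC and TGATGNAA were in 0 of the 23 windows and TTTGAA in 3.
Tmcc2, chr1:132367899-132368198, minus strand: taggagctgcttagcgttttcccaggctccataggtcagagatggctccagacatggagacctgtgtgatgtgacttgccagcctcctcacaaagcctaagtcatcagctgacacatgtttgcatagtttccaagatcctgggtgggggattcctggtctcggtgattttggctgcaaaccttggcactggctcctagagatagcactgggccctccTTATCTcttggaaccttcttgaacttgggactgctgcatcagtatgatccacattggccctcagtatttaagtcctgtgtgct
Kel, chr6:41704276-41704575, minus strand: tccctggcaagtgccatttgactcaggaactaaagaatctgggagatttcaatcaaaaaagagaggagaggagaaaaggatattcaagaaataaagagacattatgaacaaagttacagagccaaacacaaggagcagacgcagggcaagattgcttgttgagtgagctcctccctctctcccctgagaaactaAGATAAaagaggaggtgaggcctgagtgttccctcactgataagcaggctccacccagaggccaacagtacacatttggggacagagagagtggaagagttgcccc
Mpp1, chrX:75130967-75131266, minus strand: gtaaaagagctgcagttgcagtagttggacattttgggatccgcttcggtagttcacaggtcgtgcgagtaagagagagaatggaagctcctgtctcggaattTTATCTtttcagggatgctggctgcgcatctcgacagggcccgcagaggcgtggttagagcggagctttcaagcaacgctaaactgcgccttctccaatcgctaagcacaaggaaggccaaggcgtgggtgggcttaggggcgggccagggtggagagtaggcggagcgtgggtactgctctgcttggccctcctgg
The motif is short, and among all genes called higher it was about as common as among all tested genes.

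Of the erythroid transcription factors and their partners 6 of 19 tested members were called higher and 1 lower (median log2 fold change 1.24). Tal1, a helix-loop-helix factor of the erythroid complex, had 14699, 17797 and 24497 normalized counts in the S2 libraries and 44013, 57174 and 60778 in the S3 libraries (log2 fold change 1.51, SE 0.34, edgeR adjusted p = 0.0136), and its partner Cbfa2t3, a corepressor, 5497, 6209 and 10666 in S2 and 14757, 15299 and 26473 in S3. Foxo3, a forkhead factor active in late erythroid cells, had 16031, 17349 and 43529 in S2 and 112750, 103847 and 110188 in S3 (log2 fold change 2.09, SE 0.46, edgeR adjusted p = 0.0114). E2f2, an E2F factor of terminal erythroid cells, had 9462, 11464 and 40092 in S2 and 54426, 66070 and 111423 in S3, with S2 replicate 3 nearer to S3 than to the other S2 libraries. Nfe2, which acts at the globin locus, and Mxi1, a Myc antagonist, were also called, with log2 fold changes of 2.21 and 2.0. Gata1 and Klf1 were not called and had 7809, 10345 and 12494 in S2 and 9975, 19493 and 15355 in S3, and 12303, 16091 and 18084 in S2 and 20341, 37457 and 37070 in S3. Klf1 was called with the replicate block (adjusted p = 0.0172). The member called lower was Stat5a, described with the cytokine pathway below. Calls numbered 11 higher and 2 lower with the replicate block, and with library totals 1 higher and 2 lower. Without S2 replicate 3 they numbered 10 higher and 1 lower. Tal1 and Foxo3 lost the call without S2 replicate 1 or 2, Cbfa2t3, E2f2 and Mxi1 without S2 replicate 1 or 2 or S3 replicate 3, and Nfe2 without S2 replicate 1 or 2 or S3 replicate 2 or 3 (adjusted p from 0.0592 to 0.196 in those fits). Foxo3, E2f2 and Nfe2 moved by more than 1.5-fold without S2 replicate 3 (log2 fold change from 2.69 to 2.98), and Mxi1 without S3 replicate 3 (log2 fold change 1.25). Tal1, Cbfa2t3, E2f2, Nfe2 and Mxi1 were not called with library totals in place of TMM (adjusted p from 0.0579 to 0.092).

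Of the factors of earlier progenitors, 1 of 18 tested members was called higher and 4 lower (median log2 fold change -1.91). Myc had 9913, 12600 and 2944 normalized counts in the S2 libraries and 1881, 3065 and 989 in the S3 libraries (log2 fold change -2.1, SE 0.50, edgeR adjusted p = 0.016), and Myb 3768, 2717 and 661 in S2 and 794, 534 and 855 in S3 (log2 fold change -1.71, SE 0.47, edgeR adjusted p = 0.0327; adjusted p = 0.0551 with RLE factors). For both, S2 replicate 3 lay within the range of the S3 libraries and the other S2 libraries above it. Hhex, a homeobox factor, had 13, 40 and 68 counts in S2 and none in S3, at least 8.82-fold lower at a floor of 3 counts per library. Nfatc1, a calcium-responsive factor, had 650, 522 and 732 normalized counts in the S2 libraries and 0, 116 and 0 in the S3 libraries. Lyl1, a relative of Tal1, was called higher with 4588, 7306 and 5952 normalized counts in the S2 libraries and 8560, 21772 and 19156 in the S3 libraries. Gata2 had 101, 87.7 and 15.2 in S2 and 2.29, 216 and 0 in S3 and was not called. Calls numbered 1 higher and 6 lower with the replicate block, and with library totals 0 higher and 7 lower. Hhex kept the call when any 1 of the 6 libraries was left out. Myc lost the call without S2 replicate 1 or 2 or S3 replicate 3, Myb without S2 replicate 1 or 2 or S3 replicate 1, 2 or 3, Nfatc1 without S2 replicate 1 or 2, and Lyl1 without S2 replicate 1, 2 or 3 or S3 replicate 2 or 3 (adjusted p from 0.0523 to 0.168 in those fits). Without S3 replicate 2 Nfatc1 had no S3 count left. Without S2 replicate 3 the bound of Hhex was 4.52-fold. Lyl1 was not called with library totals in place of TMM (adjusted p 0.123).

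Cytokine receptors and their signalling genes changed in both directions. In this list 4 of 28 tested members were called higher and 4 lower (median log2 fold change 0.44). Kit, the receptor for stem cell factor, had 3755, 2445 and 534 normalized counts in the S2 libraries and 0, 79.4 and 0 in the S3 libraries (log2 fold change -6.3, SE 1.14, edgeR adjusted p = 0.00369), with 0 counts in S3 replicates 1 and 3. Stat5a, the transcription factor downstream of the erythropoietin receptor, had 1694, 1222 and 703 in S2 and 0, 32.9 and 19.2 in S3 (log2 fold change -6.04, SE 0.71, edgeR adjusted p = 0.000217), whereas its close copy Stat5b had 3644, 3076 and 5045 in S2 and 2475, 1390 and 778 in S3 and was not called (log2 fold change -1.34). Both may share reads, so the split between them is uncertain. Stat5b was called with the replicate block (adjusted p = 0.0195). Tyk2, a kinase of interferon receptors, and Tgfbr2, a receptor for TGF-beta, were called lower with 438, 575 and 675 in S2 and 18.4, 103 and 0 in S3, and 264, 107 and 1.39 in S2 and 0, 0 and 3.49 in S3. With 0, 0 and 2 counts in S3, the ratio of S2 to S3 for Tgfbr2 has a counting interval of 29.5 to 881.

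The members called higher were Pim1, a kinase gene induced by Stat5, with 17111, 28236 and 14515 normalized counts in the S2 libraries and 96234, 138909 and 80720 in the S3 libraries (log2 fold change 2.4, SE 0.55, edgeR adjusted p = 0.0142), the interferon receptor chains Ifnar1 with 1321, 1555 and 2658 in S2 and 8753, 7876 and 13633 in S3 and Ifnar2 with 1119, 1087 and 2527 in S2 and 5258, 4407 and 5950 in S3, and Csf2rb2, a cytokine receptor beta chain, with 30.7, 31.4 and 2.77 in S2 and 1732, 2081 and 417 in S3 (log2 fold change 6.01, SE 1.15, edgeR adjusted p = 0.00534). Csf2rb2 has a near-identical neighbour in Csf2rb, which had 113, 90.1 and 84.5 in S2 and 1071, 923 and 105 in S3 and was not called, so its separate value is uncertain. Epor, the erythropoietin receptor, had 4160, 6984 and 8047 in S2 and 8395, 16308 and 21851 in S3 (log2 fold change 1.28, edgeR adjusted p = 0.137), and Jak2, its kinase, 4740, 4379 and 13450 in S2 and 10414, 12320 and 29899 in S3. Epor and Jak2 were called with the replicate block (adjusted p = 0.00518 and 0.000657). The list's median was -0.1 with library totals, which also lowered the median of all tested genes. Calls numbered 8 higher and 7 lower with the replicate block. Kit, Stat5a, Tgfbr2, Ifnar1 and Csf2rb2 kept the call when any 1 of the 6 libraries was left out. Tyk2 lost the call without S2 replicate 1 or 2 or S3 replicate 1, Pim1 without S2 replicate 1, and Ifnar2 without S2 replicate 1 or 2 (adjusted p from 0.0504 to 0.0747 in those fits). Stat5a, Tyk2 and Tgfbr2 moved by more than 1.5-fold without S3 replicate 2 (log2 fold change from -6.87 to -5.92), Tgfbr2 without S2 replicate 1 (log2 fold change -5.45), and Tgfbr2 without S2 replicate 3 (log2 fold change -7.19). Without S3 replicate 2 Kit had no S3 count left. Without S3 replicate 3 Tgfbr2 had no S3 count left.

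Genes of nuclear condensation and enucleation were led by Xpo7. This exportin gene (GRCm38 chromosome 14, 70662126 to 70770864), whose product is required for opening and emptying of the erythroid nucleus, had 5604, 4502 and 12493 normalized counts in the S2 libraries and 112307, 190597 and 269876 in the S3 libraries (log2 fold change 4.66, SE 0.48, edgeR adjusted p = 0.000129). Its adjusted p was the lowest among the members of all lists, and its lowest S3 library was many times its highest S2 library. Of the list 5 of 23 tested members were called higher and 0 lower (median log2 fold change 0.48). The others were Lbr, the lamin B receptor, with 10662, 8623 and 17491 in S2 and 33363, 25499 and 48859 in S3, the formin Diaph3 with 13801, 10710 and 21018 in S2 and 52905, 38779 and 49096 in S3, the cytokinesis kinase Cit with 21495, 23214 and 44569 in S2 and 57349, 82951 and 88580 in S3, and the chromatin protein Hmgb2 with 15369, 18324 and 24612 in S2 and 23628, 44488 and 81966 in S3. Hmgb2 overlapped between the populations and the other 4 did not. The list's median was -0.05 with library totals, which also lowered the median of all tested genes. Calls numbered 7 higher and 3 lower with the replicate block. Xpo7 kept the call when any 1 of the 6 libraries was left out. Lbr lost the call without S2 replicate 1 or 2, Diaph3 without S2 replicate 1 or 2 or S3 replicate 1 or 3, Cit without S2 replicate 1 or 2 or S3 replicate 3, and Hmgb2 without S2 replicate 1 or 2 or S3 replicate 2 or 3 (adjusted p from 0.0503 to 0.233 in those fits). Diaph3, Cit and Hmgb2 were not called with library totals in place of TMM (adjusted p from 0.0521 to 0.14).

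Ubiquitin enzymes are among the proteins that remove the rest of the proteome at this stage, and of their list 12 of 21 tested members were called higher and 0 lower (median log2 fold change 1.45). Ube2o, the conjugating enzyme that marks ribosomal proteins for degradation (GRCm38 chromosome 11, 116537740 to 116581503), had 5401, 5977 and 9969 normalized counts in the S2 libraries and 44192, 85904 and 137778 in the S3 libraries (log2 fold change 3.65, SE 0.42, edgeR adjusted p = 0.000217). Ube2h, the conjugating enzyme that works with the CTLH ligase in erythroid cells, had 2680, 2473 and 8743 in S2 and 44352, 57824 and 70497 in S3 (log2 fold change 3.64, SE 0.61, edgeR adjusted p = 0.00224). The lowest S3 library of each lay several-fold above its highest S2 library. Fbxo30, an F-box protein, had 1926, 2794 and 5665 in S2 and 19478, 23864 and 44331 in S3, and the ring finger gene Rnf10 9238, 7665 and 13184 in S2 and 30502, 41992 and 62402 in S3. Ube2l6, the conjugating enzyme of ISG15, had 1156, 1411 and 3731 in S2 and 12561, 15747 and 18953 in S3, and the CTLH subunits Ranbp10 and Rmnd5a had log2 fold changes of 2.52 and 1.45. Maea, another CTLH subunit, had 2846, 2776 and 2695 in S2 and 1202, 2712 and 3295 in S3 and was not called. Trim10, Rnf123, Ube2e3, Usp15 and Siah1a were also called, with log2 fold changes from 1.34 to 2.47. None of the 5 motifs was in more than 2 of the 18 promoter windows of this list. Calls numbered 15 higher and 0 lower with the replicate block. Ube2o, Ube2h, Fbxo30 and Rnf10 kept the call when any 1 of the 6 libraries was left out. Ube2l6, Ranbp10, Rnf123, Usp15 and Siah1a lost the call without S2 replicate 1 or 2 or S3 replicate 3, Rmnd5a without S2 replicate 1 or 2 or S3 replicate 1, 2 or 3, Trim10 without S2 replicate 1 or 2 or S3 replicate 2 or 3, and Ube2e3 without S2 replicate 1 or 2 (adjusted p from 0.0504 to 0.184 in those fits). Ube2h, Ube2l6, Ranbp10 and Trim10 moved by more than 1.5-fold without S2 replicate 3 (log2 fold change from 3.3 to 4.47). Rmnd5a, Trim10 and Siah1a were not called with library totals in place of TMM (adjusted p from 0.0752 to 0.133).

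Of the genes of autophagy, which clears mitochondria and other organelles, 4 of 25 tested members were called higher and 0 lower (median log2 fold change 1.25). Ulk1, the kinase that starts autophagy, had 1853, 1629 and 3566 normalized counts in the S2 libraries and 9874, 15275 and 21936 in the S3 libraries (log2 fold change 2.74, SE 0.63, edgeR adjusted p = 0.0141). Becn1, of the lipid kinase complex, had 2469, 3268 and 4459 in S2 and 5864, 9485 and 10766 in S3, the receptor Sqstm1 3551, 5101 and 5924 in S2 and 8814, 10684 and 15256 in S3, and the protease Atg4d 2234, 2754 and 5187 in S2 and 6321, 10472 and 14504 in S3. None of the 4 overlapped between the populations. Bnip3l, the mitophagy receptor of reticulocytes, had 3556, 2899 and 7971 in S2 and 9165, 13614 and 22693 in S3 and was not called (log2 fold change 1.66, edgeR adjusted p = 0.0679). Bnip3l was called with the replicate block (adjusted p = 0.000105). Map1lc3b is listed at 0 in all 18 libraries. Calls numbered 15 higher and 0 lower with the replicate block, and with library totals 1 higher and 1 lower. Without S2 replicate 3 they numbered 12 higher and 0 lower. Ulk1 lost the call without S2 replicate 1 or 2, Becn1 and Sqstm1 without S2 replicate 1 or 2 or S3 replicate 3, and Atg4d without S2 replicate 1 or 2 or S3 replicate 2 or 3 (adjusted p from 0.0585 to 0.173 in those fits). Becn1, Sqstm1 and Atg4d were not called with library totals in place of TMM (adjusted p from 0.0763 to 0.161).

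Of the apoptosis regulators 1 of 19 tested members was called higher and 1 lower (median log2 fold change -0.38). Bcl2l1, which encodes the survival protein Bcl-xL (GRCm38 chromosome 2, 152758732 to 152833803), had 3142, 2584 and 5153 normalized counts in the S2 libraries and 36772, 58943 and 69693 in the S3 libraries (log2 fold change 3.93, SE 0.43, edgeR adjusted p = 0.000175), with all S3 libraries far above S2. Bid, a death-promoting relative, had 1785, 1919 and 1702 in S2 and 766, 318 and 45.4 in S3 (log2 fold change -2.26, edgeR adjusted p = 0.0417), and its S3 libraries were all lower and spread widely. Mcl1 had 7519, 9761 and 9087 in S2 and 17205, 19136 and 12672 in S3 and Bax 415, 451 and 586 in S2 and 0, 433 and 680 in S3, and neither was called. Mcl1 was called with the replicate block (adjusted p = 0.0103). Calls numbered 3 higher and 3 lower with the replicate block. Bcl2l1 kept the call when any 1 of the 6 libraries was left out. Bid lost the call without S2 replicate 1 or 2 or S3 replicate 2 (adjusted p from 0.0866 to 0.102 in those fits). Bid moved by more than 1.5-fold without S3 replicate 1 (log2 fold change -3.32).

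Antioxidant genes protect hemoglobin and membrane lipids from oxidation, and of their list 5 of 22 tested members were called higher and 0 lower (median log2 fold change 0.88). Catalase (Cat) had 9357, 10993 and 10810 normalized counts in the S2 libraries and 28407, 36465 and 39018 in the S3 libraries (log2 fold change 1.74, SE 0.25, edgeR adjusted p = 0.000952), and the glutathione synthetase gene Gss 2444, 2259 and 2342 in S2 and 8106, 10616 and 7848 in S3 (log2 fold change 1.91, SE 0.28, edgeR adjusted p = 0.000921). For both genes every S3 library lay above every S2 library. The glutathione peroxidase gene Gpx1 had 12663, 13980 and 19604 in S2 and 43976, 71362 and 110350 in S3, Gpx4 3003, 2911 and 1884 in S2 and 5543, 6429 and 7377 in S3, and the peroxiredoxin gene Prdx2 15268, 16838 and 21914 in S2 and 39252, 55071 and 54254 in S3. Sod1 and Sod2 were not called, with 5616, 4857 and 5038 in S2 and 2845, 5928 and 5463 in S3, and 2860, 1793 and 636 in S2 and 863, 932 and 774 in S3. Calls numbered 12 higher and 0 lower with the replicate block, 3 higher and 0 lower with library totals, and without S2 replicate 3 7 higher and 1 lower. Cat, Gss and Gpx1 kept the call when any 1 of the 6 libraries was left out. Gpx4 lost the call without S2 replicate 1, 2 or 3 or S3 replicate 3, and Prdx2 without S2 replicate 1 or 2 or S3 replicate 2 or 3 (adjusted p from 0.0502 to 0.126 in those fits). Gpx4 and Prdx2 were not called with library totals in place of TMM (adjusted p from 0.113 to 0.121).

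In glycolysis 1 of 20 tested members was called higher and 2 lower (median log2 fold change -0.73). Bpgm, the mutase that makes 2,3-bisphosphoglycerate, which lowers the oxygen affinity of hemoglobin (GRCm38 chromosome 6, 34476356 to 34505136), had 2041, 2290 and 4649 normalized counts in the S2 libraries and 18306, 21633 and 45890 in the S3 libraries (log2 fold change 3.26, SE 0.42, edgeR adjusted p = 0.000408). Its S3 libraries all lay above S2. Ldha, the lactate dehydrogenase A chain, had 8160, 4585 and 412 normalized counts in the S2 libraries and 578, 535 and 136 in the S3 libraries (log2 fold change -3.4, SE 0.87, edgeR adjusted p = 0.0239), where S2 replicate 3 fell among the S3 libraries. Pkm, the pyruvate kinase of proliferating cells, had 3538, 1585 and 857 in S2 and 310, 226 and 230 in S3 (log2 fold change -2.97, SE 0.76, edgeR adjusted p = 0.0241), and Pklr, the red cell pyruvate kinase, 24613, 23071 and 13068 in S2 and 22681, 31739 and 4256 in S3 with no call. Gapdh had 10499, 6670 and 2453 in S2 and 2315, 1877 and 1582 in S3 and was not called. Gapdh was called with the replicate block (adjusted p = 0.00733). Calls numbered 1 higher and 6 lower with the replicate block, 1 higher and 6 lower with library totals, and without S2 replicate 3 1 higher and 5 lower. Bpgm kept the call when any 1 of the 6 libraries was left out. Ldha lost the call without S2 replicate 1 or 2 or S3 replicate 3, and Pkm without S2 replicate 1 or S3 replicate 1, 2 or 3 (adjusted p from 0.0542 to 0.11 in those fits). Ldha and Pkm moved by more than 1.5-fold without S2 replicate 1 (log2 fold change from -2.6 to -2.27).

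Transporters of the plasma membrane were led by Slc2a1. This gene for the glucose transporter GLUT1 (GRCm38 chromosome 4, 119108745 to 119137330) had 5015, 6458 and 18210 normalized counts in the S2 libraries and 126334, 228937 and 304327 in the S3 libraries (log2 fold change 4.47, SE 0.52, edgeR adjusted p = 0.000217), and the lowest S3 library stood far above S2 replicate 3, the highest of S2. Of the list 7 of 24 tested members were called higher and 1 lower (median log2 fold change 0.80). Carriers of amino acids made up most of the rest: Slc16a10, for aromatic amino acids, had 7922, 8290 and 20024 in S2 and 88941, 124635 and 47275 in S3, Slc1a5, for glutamine, 5337, 5731 and 10936 in S2 and 24372, 33714 and 48655 in S3, and Slc6a9, for the heme precursor glycine, 4429, 5298 and 19243 in S2 and 33457, 40232 and 59951 in S3. Slc3a2 and Slc7a5, the chains of a leucine transporter, had log2 fold changes of 1.52 and 1.47, and the heme transporter gene Slc48a1 of 1.66. Slc19a1, the folate carrier, was called lower with 1842, 1550 and 58.2 in S2 and 9.18, 89 and 0 in S3 (log2 fold change -5.08, SE 1.34, edgeR adjusted p = 0.0273), and S2 replicate 3 overlapped with S3. Calls numbered 9 higher and 3 lower with the replicate block, 4 higher and 2 lower with library totals (median log2 fold change 0.3), and without S2 replicate 3 10 higher and 2 lower. Slc2a1, Slc16a10, Slc1a5 and Slc3a2 kept the call when any 1 of the 6 libraries was left out. Slc6a9 lost the call without S2 replicate 1 or 2 or S3 replicate 1, 2 or 3, Slc7a5 and Slc48a1 without S2 replicate 1 or 2 or S3 replicate 3, and Slc19a1 without S2 replicate 1 or 2 or S3 replicate 1 or 3 (adjusted p from 0.0556 to 0.186 in those fits). Slc2a1 and Slc6a9 moved by more than 1.5-fold without S2 replicate 3 (log2 fold change from 3.18 to 5.25), and Slc19a1 without S3 replicate 2 (log2 fold change -8.07). Slc6a9, Slc7a5 and Slc48a1 were not called with library totals in place of TMM (adjusted p from 0.0569 to 0.0828).

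Of the mitochondrially encoded genes, 0 of 22 tested members were called higher and 8 lower (median log2 fold change -1.67). All mitochondrial genes together took 4.48 to 7.33% of the counts in S2 and 1.53 to 2.93% in S3. Most of this share was ribosomal RNA that was not called, with 2.59 to 5.43% in S2 and 1.35 to 2.55% in S3. The cytochrome oxidase subunit mt-Co1 had 166956, 126920 and 88636 normalized counts in the S2 libraries and 52623, 60545 and 33672 in the S3 libraries (log2 fold change -1.38, SE 0.34, edgeR adjusted p = 0.0205), the complex I subunit mt-Nd1 125095, 111645 and 57064 in S2 and 28010, 35292 and 10345 in S3 (log2 fold change -2.0, SE 0.45, edgeR adjusted p = 0.013), and mt-Cytb 102329, 101983 and 54611 in S2 and 26925, 35807 and 15789 in S3. No S3 library reached an S2 library for these 3. mt-Nd6, read from the opposite strand, had 7084, 7560 and 5317 in S2 and 2065, 2063 and 2227 in S3, with the 3 S3 libraries nearly equal. mt-Nd2, mt-Nd4 and mt-Nd5 had log2 fold changes of -1.9, -1.67 and -1.62. mt-Tm, a transfer RNA gene, had 34, 17 and 14 counts in S2 and none in S3, at least 4.72-fold lower at a floor of 3 counts per library (edgeR adjusted p = 0.0471). The ribosomal RNAs mt-Rnr1 and mt-Rnr2 were not called, with log2 fold changes of -0.84 and -0.58. mt-Nd1 kept the call when any 1 of the 6 libraries was left out. mt-Co1 and mt-Nd6 lost the call without S2 replicate 1 or 2 or S3 replicate 3, mt-Cytb, mt-Nd2, mt-Nd4 and mt-Nd5 without S2 replicate 1 or 2 or S3 replicate 1 or 3, and mt-Tm without S2 replicate 1 or 2 or S3 replicate 1, 2 or 3 (adjusted p from 0.0504 to 0.161 in those fits). mt-Nd2 moved by more than 1.5-fold without S3 replicate 2 (log2 fold change -2.56). Without S2 replicate 1 the bound of mt-Tm was 3.06-fold.

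All 32 tested genes of mitosis and cytokinesis had positive fold changes, and 17 of 32 tested members were called higher and 0 lower (median log2 fold change 1.32). Kif23 and Racgap1, which form the central spindle complex that sets the cleavage furrow, had 4699, 4785 and 7590 normalized counts in the S2 libraries and 12134, 12804 and 32145 in the S3 libraries, and 2449, 3541 and 5899 in S2 and 6596, 12044 and 21427 in S3. Anln, the furrow scaffold anillin, had 5679, 6697 and 10569 in S2 and 18129, 16867 and 31606 in S3 (log2 fold change 1.54, SE 0.32, edgeR adjusted p = 0.00813), and Ect2, a guanine nucleotide exchange factor that acts there, 3210, 2767 and 5195 in S2 and 7059, 7770 and 20556 in S3. S3 replicate 3 was the highest library for each of these and the S2 libraries were all lower. The kinetochore genes Cenpf and Cenpe had 13215, 9762 and 16060 in S2 and 30144, 33284 and 91224 in S3, and 14014, 14496 and 19184 in S2 and 29128, 36100 and 72829 in S3, with log2 fold changes of 1.99 and 1.53. Mki67, which coats mitotic chromosomes, had 139000, 139055 and 265679 in S2 and 371914, 438357 and 1154300 in S3 (log2 fold change 1.85, SE 0.44, edgeR adjusted p = 0.0174).

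The mitotic kinase genes Cdk1 and Aurkb, the cyclin gene Ccna2 and the checkpoint gene Bub1b were called with smaller log2 fold changes, from 1.22 to 1.29. Ccnb1, the cyclin of mitotic entry, had 6606, 7893 and 12249 in S2 and 14100, 15273 and 19107 in S3 and was not called, and Plk1 had 5038, 6092 and 8964 in S2 and 9902, 14886 and 15692 in S3 (edgeR adjusted p = 0.055). Ccnb1 and Plk1 were called with the replicate block (adjusted p = 0.00348 and 0.00213). Calls numbered 27 higher and 0 lower with the replicate block, with library totals 9 higher and 0 lower, and without S2 replicate 3 24 higher and 0 lower. Anln kept the call when any 1 of the 6 libraries was left out. Kif23 lost the call without S2 replicate 1 or 2, Racgap1, Ect2, Cenpe, Mki67, Cdk1, Ccna2 and Bub1b without S2 replicate 1 or 2 or S3 replicate 3, Cenpf without S2 replicate 2, and Aurkb without S2 replicate 1 or 2 or S3 replicate 2 or 3 (adjusted p from 0.0503 to 0.241 in those fits). Kif23, Ect2, Cenpf, Mki67 and Bub1b moved by more than 1.5-fold without S3 replicate 3 (log2 fold change from 0.68 to 1.27). Ect2, Cdk1, Aurkb, Ccna2 and Bub1b were not called with library totals in place of TMM (adjusted p from 0.0522 to 0.166).

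The promoters of the mitosis genes shared a feature that the counts did not use. The cell cycle gene homology region, a motif with the core letters TTTGAA searched on both strands, was in 22 of 27 windows (81.5%), against 12.4% of the windows of tested genes and 17.1% of those of genes called higher. It lay within 50 bases of the start in 20 of the 27 (74.1%), against 446 of 13706 windows of tested genes (3.25%). Of 25 mitosis genes with a window, 20 had a match, 11 of which were called higher. The motif was chosen because it is known from genes of this class, and the other 4 motifs were each in at most 2 of the 27 windows. Windows of 4 called genes are shown with TTTGAA or TTCAAA in capitals.
Kif23, chr9:61946750-61947049, minus strand: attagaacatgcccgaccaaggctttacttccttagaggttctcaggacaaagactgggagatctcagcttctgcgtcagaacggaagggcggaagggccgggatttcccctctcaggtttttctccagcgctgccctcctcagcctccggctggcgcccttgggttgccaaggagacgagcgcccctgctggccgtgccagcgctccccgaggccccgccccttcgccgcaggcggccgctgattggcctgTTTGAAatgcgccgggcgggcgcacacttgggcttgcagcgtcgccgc
Cenpf, chr1:189688037-189688336, minus strand: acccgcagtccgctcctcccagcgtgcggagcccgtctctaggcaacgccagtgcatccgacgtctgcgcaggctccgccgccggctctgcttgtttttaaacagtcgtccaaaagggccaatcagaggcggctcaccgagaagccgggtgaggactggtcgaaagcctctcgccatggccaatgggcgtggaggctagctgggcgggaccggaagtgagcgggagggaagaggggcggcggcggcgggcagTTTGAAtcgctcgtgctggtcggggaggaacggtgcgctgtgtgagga
Racgap1, chr15:99651607-99651906, minus strand: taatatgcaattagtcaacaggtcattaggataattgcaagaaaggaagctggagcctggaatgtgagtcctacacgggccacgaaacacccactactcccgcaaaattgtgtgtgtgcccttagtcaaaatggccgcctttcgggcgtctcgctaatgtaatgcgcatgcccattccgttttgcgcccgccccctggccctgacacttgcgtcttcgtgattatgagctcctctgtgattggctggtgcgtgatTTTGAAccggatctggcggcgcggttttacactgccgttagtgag
Anln, chr9:22389157-22389456, minus strand: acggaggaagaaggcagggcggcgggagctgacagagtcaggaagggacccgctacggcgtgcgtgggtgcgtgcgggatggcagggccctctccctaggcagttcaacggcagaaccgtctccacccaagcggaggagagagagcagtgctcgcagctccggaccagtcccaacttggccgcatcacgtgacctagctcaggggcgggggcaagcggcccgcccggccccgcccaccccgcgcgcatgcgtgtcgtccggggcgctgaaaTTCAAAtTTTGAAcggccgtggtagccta
In all 4 the capitals lie close to the end of the window, near the annotated start.

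**Figure D4:**
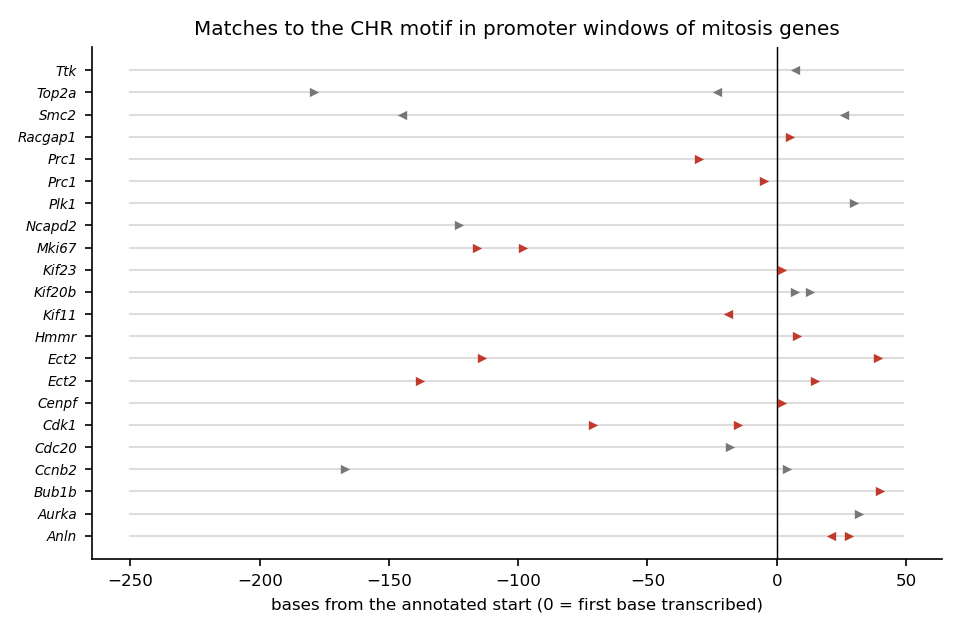
Positions of TTTGAA matches in the 22 promoter windows of mitosis genes that hold one, as bases from the annotated start (horizontal axis). An arrowhead points in the direction of the motif's strand and is red where the gene was called higher in S3, and most arrowheads lie within 50 bases of the start.

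Of the genes of DNA replication 0 of 33 tested members were called higher and 1 lower (median log2 fold change -0.14). With library totals 0 higher and 7 lower were called, against 2264 lower among all 16555 tested genes. The list's median was then -0.64, and that scaling also lowered the median of all tested genes, as given above. For 8 of the 33 every S3 library lay below every S2 library, against 14.1% of all tested genes. Gins2, a subunit of the replicative helicase, was the member called, with 1695, 1970 and 2004 normalized counts in the S2 libraries and 507, 1046 and 511 in the S3 libraries (log2 fold change -1.46, edgeR adjusted p = 0.0467). The helicase genes Mcm2 to Mcm7 had log2 fold changes between -0.67 and -0.07, and none was called. Pcna had 12297, 16201 and 18673 in S2 and 13268, 18765 and 26269 in S3. Of the replication-dependent histone genes, which are transcribed in S phase and are near-identical within classes, 0 of 55 were called by edgeR, 2 were higher at an unadjusted p under 0.05, 2 by DESeq2 and 8 with the replicate block. Of the 55, 51 had positive fold changes and the median was 0.94, but without S3 replicate 1 these were 23 and -0.16, so the direction rests on that library. Gins2 lost the call without S2 replicate 1, 2 or 3 or S3 replicate 1 or 3 (adjusted p from 0.0632 to 0.144 in those fits).

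Regulators of the cell cycle held members of both directions: 1 of 25 tested members was called higher and 3 lower (median log2 fold change 0.52). Cdk6, the kinase of early G1 phase, had 8962, 5281 and 561 normalized counts in the S2 libraries and 57.4, 296 and 0 in the S3 libraries (log2 fold change -5.37, SE 1.26, edgeR adjusted p = 0.0153), and its relative Cdk4 4772, 4230 and 1446 in S2 and 335, 913 and 229 in S3 (log2 fold change -2.82, SE 0.66, edgeR adjusted p = 0.0149). S2 replicate 3 was the lowest S2 library for both but stayed above S3. E2f3 had 6965, 5760 and 5873 in S2 and 2709, 2170 and 1566 in S3. E2f7, an E2F repressor, was called higher with 2403, 4288 and 6849 in S2 and 8002, 9326 and 26220 in S3. The inhibitor genes Cdkn1b and Cdkn2c were not called, with 1457, 1028 and 7914 in S2 and 2742, 5986 and 21259 in S3, and 369, 999 and 2155 in S2 and 4749, 5946 and 10112 in S3. Cdkn1b and Cdkn2c were called with the replicate block (adjusted p = 0.00191 and 0.035). Calls numbered 10 higher and 4 lower with the replicate block, and without S2 replicate 3 6 higher and 3 lower. Cdk6 lost the call without S3 replicate 1, Cdk4 without S2 replicate 1 or S3 replicate 1 or 3, E2f3 without S2 replicate 1 or 2 or S3 replicate 1, 2 or 3, and E2f7 without S2 replicate 1 or 2 or S3 replicate 3 (adjusted p from 0.0506 to 0.198 in those fits). Cdk6 moved by more than 1.5-fold without S2 replicate 1 (log2 fold change -4.63), Cdk6 and Cdk4 without S3 replicate 2 (log2 fold change from -7.49 to -3.63), and E2f7 without S3 replicate 3 (log2 fold change 0.92). E2f7 was not called with library totals in place of TMM (adjusted p 0.0731).

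Ribosome biogenesis, the making of ribosomal RNA and its assembly in the nucleolus, was lower by count and by median. Of 29 tested genes 28 had negative fold changes, and 0 of 29 tested members were called higher and 5 lower (median log2 fold change -1.88). Polr1b, the second subunit of RNA polymerase I, had 4890, 3104 and 568 normalized counts in the S2 libraries and 470, 403 and 55.8 in the S3 libraries (log2 fold change -3.21, SE 0.77, edgeR adjusted p = 0.0177). Npm1, the nucleolar chaperone, had 45135, 34237 and 9364 in S2 and 3526, 6604 and 3380 in S3 (log2 fold change -2.72, SE 0.65, edgeR adjusted p = 0.0167), and the processing factors Wdr43 15032, 13040 and 2925 in S2 and 1838, 2485 and 645 in S3, Rrs1 4456, 6090 and 1465 in S2 and 652, 1175 and 89 in S3 and Mybbp1a 23427, 16027 and 2262 in S2 and 2186, 3646 and 593 in S3. For Polr1b, Npm1, Wdr43 and Rrs1 all S3 libraries lay below all S2 libraries. S2 replicate 3 was the lowest S2 library of each and lay near S3. Ubtf, which activates polymerase I, was the exception in sign, with 16477, 14715 and 12597 in S2 and 13671, 20010 and 47213 in S3 and no call. Calls numbered 0 higher and 27 lower with the replicate block, with library totals 0 higher and 17 lower, and without S2 replicate 3 0 higher and 21 lower. Polr1b lost the call without S2 replicate 1, Npm1 without S2 replicate 1 or S3 replicate 1 or 3, Wdr43 without S2 replicate 1 or 2 or S3 replicate 3, and Rrs1 and Mybbp1a without S2 replicate 1 or 2 or S3 replicate 1 or 3 (adjusted p from 0.0563 to 0.185 in those fits). Polr1b and Mybbp1a moved by more than 1.5-fold without S2 replicate 1 (log2 fold change from -2.58 to -2.11), and Rrs1 and Mybbp1a without S3 replicate 2 (log2 fold change from -3.44 to -3.33).

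The E-box CACGTG, the site of Myc and its relatives, was in 6 of 31 promoter windows of this list (19.4%), against 9.6% of the windows of tested genes and 11.2% of the 988 windows of genes called lower. Of the genes with a match, Wdr43 and Mybbp1a were called, and Nop2, Pes1, Rrn3 and Utp20 were not. The windows of the 2 called members are shown.
Wdr43, chr17:71615965-71616264, plus strand: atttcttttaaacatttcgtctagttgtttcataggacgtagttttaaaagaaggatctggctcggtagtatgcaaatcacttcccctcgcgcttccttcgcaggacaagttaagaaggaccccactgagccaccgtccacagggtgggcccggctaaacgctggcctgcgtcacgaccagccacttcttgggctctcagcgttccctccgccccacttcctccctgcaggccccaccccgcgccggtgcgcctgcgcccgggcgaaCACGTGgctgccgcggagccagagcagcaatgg
Mybbp1a, chr11:72441077-72441376, plus strand: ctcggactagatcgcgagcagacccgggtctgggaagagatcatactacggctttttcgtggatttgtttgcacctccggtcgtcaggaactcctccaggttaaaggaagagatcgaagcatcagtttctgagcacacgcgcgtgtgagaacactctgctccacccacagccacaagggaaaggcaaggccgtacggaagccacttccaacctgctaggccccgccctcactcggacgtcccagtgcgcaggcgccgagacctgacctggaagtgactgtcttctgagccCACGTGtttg
Capitals mark CACGTG.

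All 31 tested genes of cytosolic ribosomal proteins had negative fold changes. The median was -0.95, and 0 were called by edgeR, 5 were lower at an unadjusted p under 0.05, 2 by DESeq2 and 11 with the replicate block, all lower. With library totals 5 were called lower, with a median of -1.43, and without S2 replicate 3 6 were. Rps19 had the smallest change with 7640, 6494 and 2383 in S2 and 5584, 4261 and 2468 in S3 (log2 fold change -0.42), and Rpl13a the largest with 1507, 1446 and 416 in S2 and 55.1, 697 and 12.2 in S3 (log2 fold change -2.13). Rpl13a was called with the replicate block (adjusted p = 0.036). The libraries overlapped for all 31. Rpl13 is listed at 0 in all 18 libraries.

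Leukocyte signalling and cytoskeleton genes had the lowest median, and 1 of 30 tested members was called higher and 5 lower (median log2 fold change -2.51). Itgb2, the common chain of leukocyte integrins, had 2, 66 and 81 counts in S2 and none in S3, at least 10.4-fold lower. Laptm5, a lysosomal protein of blood cells, had 142, 93 and 17 counts in S2 and 0, 3 and 0 in S3, a ratio of S2 to S3 with a counting interval of 23.3 to 331. Vav1, an exchange factor of blood cells, had 557, 196 and 180 normalized counts in the S2 libraries and 2.29, 27.4 and 0 in the S3 libraries (log2 fold change -4.83, SE 0.84, edgeR adjusted p = 0.00274), and the phosphatase gene Ptpn6 585, 332 and 147 in S2 and 78, 20.5 and 0 in S3. Coro1a, an actin-binding protein, had 46, 3 and 2 counts in S2 and none in S3, at least 3.95-fold lower. All 5 were low genes. Every S3 library lay below every S2 library for Laptm5, Vav1 and Ptpn6, while Itgb2 and Coro1a were at or under the floor of 3 counts in some S2 libraries. Lcp1, the actin-bundling L-plastin, went the other way with 264, 212 and 76.2 normalized counts in the S2 libraries and 1973, 3115 and 856 in the S3 libraries (log2 fold change 3.43, SE 0.81, edgeR adjusted p = 0.0162). Calls numbered 3 higher and 9 lower with the replicate block, 1 higher and 9 lower with library totals, and without S2 replicate 3 3 higher and 7 lower. Itgb2, Laptm5 and Vav1 kept the call when any 1 of the 6 libraries was left out. Ptpn6 lost the call without S2 replicate 1, Coro1a without S2 replicate 1 or S3 replicate 1, 2 or 3, and Lcp1 without S2 replicate 2 (adjusted p from 0.0614 to 0.215 in those fits). Laptm5 and Vav1 moved by more than 1.5-fold without S2 replicate 1 (log2 fold change from -4.83 to -4.12), Vav1 without S3 replicate 2 (log2 fold change -8.11), and Ptpn6 without S3 replicate 1 (log2 fold change -5.04). Without S3 replicate 2 Laptm5 had no S3 count left. Without S2 replicate 3 the bound of Itgb2 was 5.15-fold. Without S2 replicate 1 no bound could be given for Coro1a.

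Genes of the integrated stress response, which couples heme supply to translation, were partly higher: 3 of 19 tested members were called higher and 0 lower (median log2 fold change 1.23). Eif2ak1, the heme-regulated kinase, had 9711, 11566 and 25237 normalized counts in the S2 libraries and 41514, 66381 and 97636 in the S3 libraries (log2 fold change 2.14, SE 0.48, edgeR adjusted p = 0.0126), Ppp1r15a, the phosphatase subunit that ends the response, 8689, 18445 and 33683 in S2 and 70539, 124521 and 252508 in S3 (log2 fold change 2.88, SE 0.62, edgeR adjusted p = 0.00992), and the factor Atf5 428, 473 and 1249 in S2 and 3256, 4131 and 3714 in S3. No S3 library overlapped with S2 for these. Atf4 had 25018, 33143 and 25638 in S2 and 39293, 71036 and 71038 in S3 and was not called. Atf4 was called with the replicate block (adjusted p = 0.00913). Of the immediate early and heat shock genes, a list that handling of cells can raise, 3 of 10 were called higher. Hspa1a had 55.1, 111 and 207 in S2 and 5027, 3718 and 4150 in S3 (log2 fold change 5.11, SE 0.71, edgeR adjusted p = 0.000688), Hspa1b, its near-identical copy with uncertain separate values, 76.8, 306 and 391 in S2 and 6064, 6984 and 6825 in S3, and Ier2 1609, 1812 and 1243 in S2 and 6757, 7774 and 2812 in S3. The summed level of this list was 303 to 403 CPM in S2 and 510 to 931 CPM in S3, so it moved with the population, and its part in the other results was not tested. The motif TGATGNAA, searched as a partial ATF4 site, was in 5 of 21 promoter windows of the stress response list (23.8%), against 2.3% of those of tested genes. The block on replicate numbers gave 7 of 19 stress response genes called higher and 1 lower, and 5 of the 10 immediate early and heat shock genes higher. Without S2 replicate 3 the stress response calls were 7 higher and 0 lower. Ppp1r15a and Hspa1a kept the call when any 1 of the 6 libraries was left out. Eif2ak1 and Hspa1b lost the call without S2 replicate 1 or 2, Atf5 without S2 replicate 1 or 2 or S3 replicate 3, and Ier2 without S2 replicate 1, 2 or 3 or S3 replicate 1 or 2 (adjusted p from 0.0654 to 0.135 in those fits). Ppp1r15a moved by more than 1.5-fold without S3 replicate 3 (log2 fold change 2.25), and Atf5 without S2 replicate 3 (log2 fold change 3.02). Atf5 and Ier2 were not called with library totals in place of TMM (adjusted p from 0.054 to 0.0967).

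Of the genes for pausing and elongation by RNA polymerase II, the enzyme that makes the labelled messenger RNA, 2 of 20 tested members were called higher and 0 lower (median log2 fold change -0.03). Hexim1, which holds the elongation kinase in an inactive complex, had 1735, 1784 and 1548 normalized counts in the S2 libraries and 2691, 3913 and 5348 in the S3 libraries (log2 fold change 1.24, edgeR adjusted p = 0.0422), and Aff1, a scaffold of the super elongation complex, 8344, 8939 and 25113 in S2 and 42141, 51598 and 71961 in S3 (log2 fold change 1.97). Polr2a, the largest subunit of the polymerase, had 19329, 13973 and 16681 in S2 and 20710, 19805 and 22805 in S3. The block on replicate numbers gave 5 higher and 0 lower. In cholesterol synthesis and uptake, the median log2 fold change was -0.51, but 0.01 without S2 replicate 1 and -1.08 without S3 replicate 1. Here 0 of 17 tested members were called higher and 1 lower. Scap, which carries the SREBP factors, was that member, with 2096, 1416 and 639 in S2 and 110, 411 and 29.7 in S3 (log2 fold change -2.91, SE 0.70, edgeR adjusted p = 0.0178), and 2 were called lower with the replicate block. Hexim1 lost the call without S2 replicate 1, 2 or 3 or S3 replicate 2 or 3, Aff1 without S2 replicate 1 or 2 or S3 replicate 3, and Scap without S2 replicate 1 or S3 replicate 1 (adjusted p from 0.0575 to 0.172 in those fits). Aff1 moved by more than 1.5-fold without S2 replicate 3 (log2 fold change 2.66), and Scap without S3 replicate 2 (log2 fold change -4.32). Hexim1 and Aff1 were not called with library totals in place of TMM (adjusted p from 0.0624 to 0.217).

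The largest rises by fold were, besides Csf2rb2 of the cytokine receptor list above, low genes outside these lists. Trim43c had no count in S2 and 116, 42 and 75 counts in S3, at least 43.6-fold higher at a floor of 3 counts per library, and Vwc2l had none in S2 and 106, 16 and 51 in S3, at least 34-fold higher. Nav3 had 0, 1 and 1 counts in S2 and 189, 2 and 1 in S3, a ratio with a counting interval of 55.4 to 1650, so that S3 replicate 1 alone carries its fold, and it was not called with the replicate block. Cyp4f39 had 0, 1.61 and 0 normalized counts in the S2 libraries and 179, 52 and 134 in the S3 libraries, a ratio with a counting interval of 62.8 to 1870. Smtnl1, Gipc2 and Lipc had 0, 9.66 and 0 normalized counts in the S2 libraries and 25.2, 319 and 1809 in the S3 libraries, 0, 10.5 and 0 in S2 and 301, 186 and 473 in S3, and 0, 46.7 and 16.6 in S2 and 734, 791 and 895 in S3, and the interferon-induced gene Oasl2 1, 11 and 9 counts in S2 and 115, 849 and 273 in S3. Kbtbd12, a kelch-repeat gene, had 5.12, 101 and 40.2 normalized counts in the S2 libraries and 927, 2844 and 2189 in the S3 libraries (log2 fold change 5.34, SE 0.97, edgeR adjusted p = 0.00387), the lowest p of this group. Being named by fold required that the normalized counts of S2 and S3 did not overlap, so that separation is no separate result. For Nav3 it was slight, as S2 replicate 3 and S3 replicate 3 both had 1 count.

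For 2 of these the distance to a chosen erythroid gene was measured, and the others were not searched for such neighbours. Rundc3a had 0, 5.63 and 1.39 in S2 and 1276, 311 and 705 in S3 (log2 fold change 8.18, SE 2.24, edgeR adjusted p = 0.032), and lies 28.1 kb from Slc4a1, at chromosome 11, 102393394 to 102402555. Olfr632, an olfactory receptor gene, had 2.56, 3.22 and 0 in S2 and 119, 327 and 108 in S3 (log2 fold change 6.45, edgeR adjusted p = 0.0429), and lies 84.2 kb from the embryonic globin gene Hbb-y, at chromosome 7, 103937382 to 103938335. Whether reads of the neighbouring genes contribute to these counts was not tested. Kbtbd12 kept the call when any 1 of the 6 libraries was left out. Trim43c, Vwc2l, Cyp4f39, Lipc and Rundc3a lost the call without S2 replicate 1, 2 or 3 or S3 replicate 1 or 3, Nav3 without S2 replicate 1, 2 or 3 or S3 replicate 1, Smtnl1 without S2 replicate 1, 2 or 3 or S3 replicate 3, Gipc2 without S2 replicate 1 or 3 or S3 replicate 1 or 3, Oasl2 without S2 replicate 1 or 2 or S3 replicate 2 or 3, and Olfr632 without S2 replicate 1, 2 or 3 or S3 replicate 1, 2 or 3 (adjusted p from 0.0506 to 0.585 in those fits). Nav3 and Rundc3a moved by more than 1.5-fold without S3 replicate 1 (log2 fold change from 1.47 to 7.59), Smtnl1 without S3 replicate 3 (log2 fold change 5.6), Lipc without S2 replicate 1 (log2 fold change 4.64), Lipc, Kbtbd12 and Rundc3a without S2 replicate 2 (log2 fold change from 6.44 to 9.88), and Oasl2 and Olfr632 without S3 replicate 2 (log2 fold change from 5.59 to 5.75). Without S2 replicate 2 Cyp4f39, Smtnl1 and Gipc2 had no S2 count left. Without S3 replicate 1 the bound of Trim43c was 27.1-fold and the bound of Vwc2l was 16-fold. Smtnl1, Gipc2 and Lipc were not called with library totals in place of TMM (adjusted p from 0.0505 to 0.0566).

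The largest falls by fold were genes with no count in any S3 library. At a floor of 3 counts per library, Get1, which inserts tail-anchored proteins, was at least 88.5-fold lower with 643, 754 and 4 counts in S2, and the zinc finger genes Zfp109 and Zfp248 were at least 85.5-fold and 81.6-fold lower with 603, 445 and 185, and 582, 528 and 111 counts. Abca2, a lipid transporter, had 325, 262 and 387 normalized counts in S2, Decr1, a reductase of fatty acid oxidation, 394, 317 and 240, and Acsl6, an acyl-CoA synthetase, 247, 262 and 341, with bounds of 60.1-fold, 58.6-fold and 52.4-fold. The replicates of these 3 were close in S2. Mthfd2l of folate metabolism had 261, 321 and 116, the imprinted gene Peg10 378, 170 and 105, and Nxn and Nags 408, 348 and 2.77, and 236, 302 and 4.16.

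Bach2, a transcriptional repressor known from lymphoid cells, had 14.1, 41 and 617 normalized counts in S2, and Spon2 11.5, 124 and 402, so their S2 level came mainly from S2 replicate 3. For Get1, Nxn and Nags that library was instead the lowest. A gene listed at 0 in 3 libraries may be below detection, and S3 replicates 1 and 3 also listed higher genes at 0, as given above. Get1, Zfp109, Zfp248, Abca2, Decr1, Acsl6, Nxn, Mthfd2l, Bach2, Peg10 and Nags kept the call when any 1 of the 6 libraries was left out. Spon2 lost the call without S2 replicate 1, 2 or 3 or S3 replicate 1, 2 or 3 (adjusted p from 0.0549 to 0.113 in those fits). Without S2 replicate 1 the bound of Get1 was 56.6-fold, the bound of Zfp109 was 56.8-fold, the bound of Zfp248 was 53.5-fold and the bound of Peg10 was 25.4-fold. Without S2 replicate 3 the bound of Bach2 was 5.1-fold and that of Spon2 was more than 1.5-fold smaller. Without S2 replicate 2 the bound of Nags was 22.2-fold.

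Ranked by the share of counts gained, the called genes were led by abundant transcripts. Mki67 gained 8077 CPM on average and the nuclear noncoding RNA Malat1 7959 CPM. Without S3 replicate 3 the gain of Mki67 was 3870 CPM, the 5th largest, and that of Malat1 7912 CPM, the largest. Malat1 had 70645, 59047 and 104847 normalized counts in the S2 libraries and 453274, 431242 and 547418 in the S3 libraries (log2 fold change 2.61, SE 0.39, edgeR adjusted p = 0.00115). Slc4a1, Tmcc2, Marchf3, Slc2a1, Epb41, Xpo7, Sptb and Ank1 followed. Leaving out S3 replicate 3 took the gain of Tmcc2 from 4876 to 3205 CPM and its rank from 4 to 9. Marchf3, a membrane-bound ubiquitin ligase gene, had 16294, 16799 and 42086 in S2 and 230020, 276300 and 197017 in S3 (log2 fold change 3.23, SE 0.53, edgeR adjusted p = 0.00212), and S3 lay above S2 in every library for all 10. Among called genes, the largest losses of share were those of 6 mitochondrially encoded genes, from mt-Co1 to mt-Nd4. Npm1, the chaperonin gene Hspd1, the RNA-binding protein gene Ybx1 and the ubiquitin ligase gene Nedd4 stood with them. The mitochondrial ribosomal RNAs were not called, so this ranking leaves them out. Hspd1 had 28822, 26602 and 3928 in S2 and 2044, 5078 and 863 in S3, and Ybx1 30521, 23526 and 7413 in S2 and 5545, 8329 and 4333 in S3 (log2 fold change -1.75, edgeR adjusted p = 0.0499; 0.0501 with RLE factors), and S2 replicate 3 overlapped with S3 for both. Nedd4 had 23050, 18381 and 21236 in S2 and 8863, 9521 and 6044 in S3 (log2 fold change -1.36, SE 0.27, edgeR adjusted p = 0.00612) without overlap. Malat1, Marchf3 and Nedd4 kept the call when any 1 of the 6 libraries was left out. Hspd1 and Ybx1 lost the call without S2 replicate 1 or 2 or S3 replicate 1 or 3 (adjusted p from 0.115 to 0.198 in those fits). Hspd1 moved by more than 1.5-fold without S3 replicate 2 (log2 fold change -3.77).

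The step before, from S1 to S2, gave 0 called genes by edgeR in the same model and 151 by DESeq2 (6 higher and 145 lower in S2). At an unadjusted p under 0.05, edgeR gave 667 genes for that step, against 1484 higher and 2894 lower for the last step. The S2 libraries enter both steps, with opposite signs, so a low or high S2 level moves both. A test of the difference between the 2 steps called 26 genes (0.157% of those tested), all with a more negative change in the last step, and 1410 genes had an unadjusted p under 0.05. All 26 were among the genes called lower in S3, and 11 had no S3 count. Slc25a4, the adenine nucleotide carrier of mitochondria, had 2002 ± 1134 normalized counts in S1, 1321 ± 606 in S2 and 0.913 ± 1.58 in S3 (mean ± SD, n = 3; edgeR adjusted p = 0.0127 for the difference between the steps). Itga5, the fibronectin receptor alpha chain, had 831 ± 121 in S1, 441 ± 264 in S2 and 0.456 ± 0.79 in S3, and Stat5a 2233 ± 150, 1206 ± 496 and 17.4 ± 16.5. For these 3 genes the S1 and S2 means differed by less than 2-fold, and the S3 mean was far below both.

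Also among the 26 were Prr12, Kif13a and Scarb2, the best counted in S3, with differences of -3.03, -2.93 and -4.52. This count rested on the replicates. It was 0 with a minimum of 10 counts in each S1, S2 and S3 library, 91 with the replicate block and 319 by DESeq2. Leaving out 1 S1 library gave 5 to 7, S2 replicates 1 and 2 5 and 7, S2 replicate 3 87, S3 replicate 1 28, S3 replicate 2 471 and S3 replicate 3 37. The 26 differences were all negative under edgeR with TMM scaling, but positive ones were called in other fits: 88 of 319 by DESeq2, 38 of 247 without a count filter, 24 of 91 with the replicate block, 7 of 87 without S2 replicate 3, 7 of 471 without S3 replicate 2, 1 of 37 without S3 replicate 3 and 1 of 64 with library totals. Of the positive ones, 63 by DESeq2 and 23 with the replicate block were among the genes called higher in S3.

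**Figure D5:**
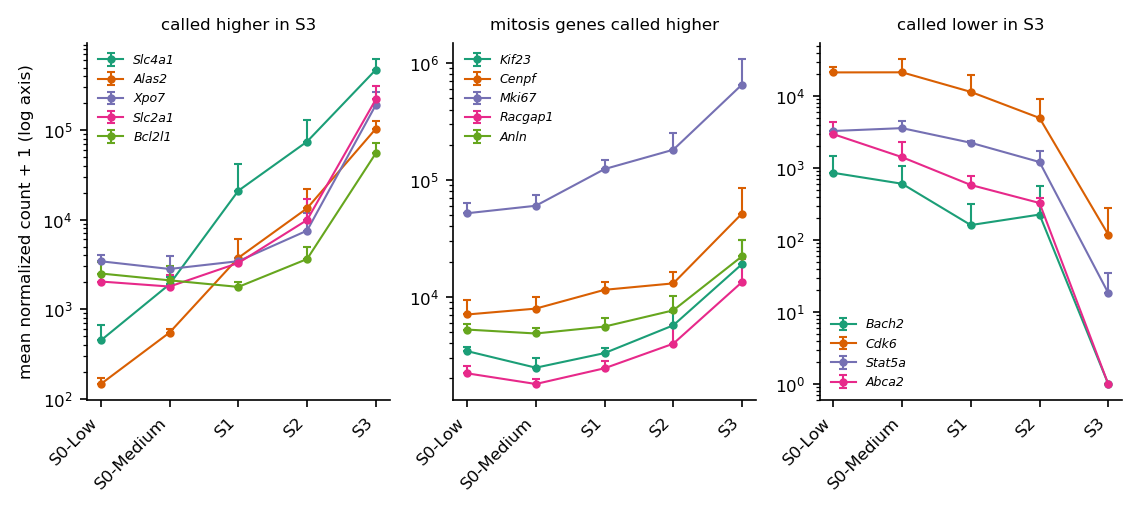
Mean normalized count + 1 (vertical axis, log scale) in the 5 erythroid populations of genes called higher in S3, mitosis genes called higher and genes called lower, with bars that rise 1 SD above the mean (n = 3). Slc4a1 and Alas2 rise from S0-Low on, Xpo7, Slc2a1 and Bcl2l1 mainly after S1, and Bach2 and Abca2 reach 0 counts in S3.

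Summed over each list, the markers of macrophages and monocytes were at 1.19 to 3.91 CPM in S2 and 0.0333 to 2.9 CPM in S3, those of neutrophils at most 0.712 and 1.65 CPM, those of hepatocytes at most 0.712 and 0.0305 CPM, and those of mast cells and basophils and of lymphoid cells below 1 CPM in every library. Endothelial and stromal markers were at 0.118 to 2.3 CPM in S2 and 5.34 to 9.12 CPM in S3. No count in S2 or S3 was found for 6 of 11 macrophage markers (among them C1qb, C1qc, Timd4 and Vcam1), 4 of 10 of neutrophils (among them Elane and Ctsg), 4 of 5 of mast cells and basophils (among them Cpa3), 2 of 6 of lymphoid cells, 3 of 8 of hepatocytes (Fga, Fgb and Ahsg) and 2 of 7 of vessels and stroma (Cdh5 and Col1a1). Of the macrophage markers with counts, Cd68 had 58, 139 and 29 in S2 and 0, 95 and 0 in S3, Csf1r 1, 1 and 1 and 0, 0 and 0, and Adgre1 2, 1 and 0 and 2, 0 and 1. Of the 30 tested members of these lists, edgeR called 0, 3 were higher and 1 lower at an unadjusted p under 0.05, and DESeq2 called 2 higher, Kdr and Pecam1, both of endothelial cells. Kdr had 2, 13 and 13 counts in S2 and 4, 117 and 121 in S3, and Pecam1 0, 58 and 2 and 158, 56 and 45. The endothelial and stromal sum thus moved with the population, and its part in the results was not tested. Megakaryocyte markers were at 33.6 to 100.0 CPM in S2 and 45.0 to 86.2 CPM in S3, with 1 of 8 called: Itga2b, the CD41 chain, a lineage antigen of the sort, had 330, 366 and 170 normalized counts in the S2 libraries and 555, 2362 and 1094 in the S3 libraries (log2 fold change 2.21, edgeR adjusted p = 0.039), and the platelet gene Ppbp had no count. Itga2b lost the call without S2 replicate 1, 2 or 3 or S3 replicate 2 or 3 (adjusted p from 0.0605 to 0.126 in those fits). Itga2b moved by more than 1.5-fold without S3 replicate 2 (log2 fold change 1.51). Itga2b was not called with library totals in place of TMM (adjusted p 0.0745).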

How the data were processed

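4sU-labelled RNA was sequenced in 18 libraries. Per the labels and the study's methods, libraries were made with the SMARTer stranded total RNA kit (14 PCR cycles, no molecular identifiers), and the authors quantified reads with kallisto 0.43.0 (GRCm38 in the submitters' processing notes) and deposited whole-number counts per gene, neither normalized nor pooled. The transcript set, intron treatment and strand setting are not given in the sources used here. Near-identical genes can share counts. Groups and replicate numbers came from the sample labels, and every per-sample column was mapped (0 not used).

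Tests ran under R 4.3.3 (edgeR 4.0.16; DESeq2 1.42.0); tables and figures were made with Python 3.11.15 (numpy 2.4.6, pandas 2.3.3, matplotlib 3.10.9). The 15 erythroid libraries (5 populations, 3 replicates each) entered 1 model with TMM scaling, filterByExpr and population as the only factor, and the 2 contrasts were tested two-sided by the quasi-likelihood F-test of edgeR, adjusted by Benjamini-Hochberg over 16555 genes (common biological coefficient of variation 0.795). The study's methods name DESeq2, which was run as an alternative. To give normalized counts, each library was scaled to the average TMM-corrected library size. Principal components used log2(CPM + 0.5). TMM factors were 0.888 to 1.06 in S2 and 0.594 to 0.755 in S3.

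Deviations of same-numbered S2 and S3 libraries from their population means correlated (r = 0.173, 0.257 and 0.317), against -0.274 to 0.117 for differently numbered libraries. Each was above 0.1, so the numbers were taken to pair the libraries, although S2 replicate 1 with S3 replicate 2 (0.117) was too. What a shared number stands for is not stated. The main model leaves this pairing out, so its calls and adjusted p-values ignore it, while the fit with the replicate block includes it. No pair of replicates agreed within sampling noise (chi-square divided by its degrees of freedom, 134 to 503). Genes named were Slc4a1 and Alas2, the 12 largest rises and falls by fold among called genes without overlap, with 100 or more normalized counts on average where they were higher and a symbol that is no predicted-gene name, the 10 largest gains and losses of CPM, up to 4 called members of each list and direction by lowest p, and members needed to describe a pathway. Other called members and the genes of the step difference were chosen after their values were seen. The comparison, the gene lists and the promoter motifs were chosen with earlier results of these data known. Some symbols are newer RefSeq names of those in the names table used with the files.

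On simulated counts of 16061 genes for S3 against S2, the test called 0% of 50 genes changed 2-fold, 16% at 4-fold, 50% at 8-fold and 66% at 16-fold, and 1 of 15861 unchanged genes. Those counts were drawn independently around a mean shared by all libraries, apart from the changes set in S3. They were not built with replicate pairs, an S2 library near S3 or zeros in well-counted genes, so these rates need not hold for the real libraries. Promoter windows and coordinates were taken from RefSeq, GRCm38.p6, of which 10733 tested genes had a window. Windows for Slc4a1, Xpo7, Ube2o, Npm1, Rundc3a and Olfr632 were not analysed here. Alternatives were DESeq2, RLE factors, library totals, no count filter, at least 10 counts per library, the replicate block, the 6 libraries alone, globin genes left out and each library left out. Some members of the lists are counted but not reported here by name.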

Additional observations from a re-analysis of the deposited data

Results flagged for a closer look

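The change from S2 to S3 differed from the change from S1 to S2 for 26 genes by edgeR's test of the difference (adjusted p under 0.05), with differences of log2 fold changes from -11.75 to -2.93. All 26 were lower in S3, and 1, the serotonin receptor gene Htr2a, had a higher fitted level in S2 than in S1. The 3 S2 libraries enter both steps.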

How the results depend on the processing

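The 1548 genes called between S3 and S2 (540 higher, 1008 lower) became 3332 by DESeq2 (1292 and 2040), 2552 with library totals (288 and 2264), 2546 without a count filter (834 and 1712) and 98 in the 6 libraries alone (75 and 23). With the replicate block there were 3074 (1208 and 1866), and with the block together with library totals, an alternative chosen after seeing the data, 4253 (695 and 3558). Leaving out 1 library gave 692 to 2375 (165 to 850 higher, 513 to 1595 lower). RLE factors (1605), a minimum of 10 counts per library (1181, with 561 higher and 620 lower) and omission of the globin genes (1541) kept the total within 1.5-fold. The count of 26 genes with a step difference was 319 by DESeq2, 64 with library totals, 247 without a count filter, 0 with at least 10 counts per library and 91 with the replicate block, and ranged from 5 to 471 when 1 library was left out. Of the single genes recomputed, 159 were called, and none of their 2175 values under the alternatives changed sign, while 539 were no longer past the threshold, with 133 of the 159 genes lost in the 6 libraries alone, 103 without S2 replicate 1, 94 without S2 replicate 2, 84 without S3 replicate 3 and 44 with library totals. The replicate block lost 1 of them, Nav3. Among genes that were not called, the log2 fold change of Dock10 was -3.43 without S3 replicate 1 and at most 2.18 in the other such fits, and that of Gata2 was -5.93 without S3 replicate 2 and at most 0.69. The causes of these shifts were not tested.

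In simulated data no 2-fold change was called, so a missing call does not show that a gene was unchanged. Genes listed at 0 in S3 are bounded by a floor of 3 counts per library. Dropouts in S3 replicates 1 and 3 reached genes with at least 100 normalized counts in the other replicates.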
